A study of Mus musculus with 8 samples.

Results

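Sh2b3 and 9 genes that share its pathway were followed through 8 mouse RNA-seq libraries. The 10 genes were the SH2B adaptors Sh2b1, Sh2b2 and Sh2b3, the kinases Jak1 and Jak2, the feedback inhibitors Cish, Socs1 and Socs2, and the receptor tyrosine kinases Csf1r and Kit. They were picked by gene symbol because Sh2b3 was higher with auranofin in both cell types, so the Sh2b3 difference is given as a description without a test. All 10 were found among the 18645 genes of the stellate cell table and among the 17408 genes of the macrophage table. By RefSeq on GRCm38, Sh2b1 lies at chr7:126466993-126476650, Sh2b2 at chr5:136218147-136246595 and Sh2b3 at chr5:121815481-121837645. Jak1 lies at chr4:101151974-101265282, Jak2 at chr19:29251803-29313095 and Cish at chr9:107296659-107302784. Socs1 lies at chr16:10783808-10785536, Socs2 at chr10:95383903-95417321, Csf1r at chr18:61105572-61131139 and Kit at chr5:75574987-75656722.

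SH2B adaptors bind activated tyrosine kinases through their SH2 domain. SH2B3, also known as LNK, restrains JAK2 and the cytokine receptors that use it, as well as KIT, and is best known in blood-forming cells, whereas SH2B1 enhances JAK2 and insulin receptor signaling and SH2B2, also known as APS, acts at the insulin receptor and recruits CBL. Cytokine receptors activate JAK kinases, which phosphorylate STAT transcription factors, and STATs in turn induce CISH and the SOCS proteins, which switch the receptors off.

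The study examined auranofin, a gold compound, in liver fibrosis, and RNA-seq covered 2 cell types. The first was labelled activated hepatic stellate cell (AHSC, here HSC), from the liver of C57BL/6 mice, either untreated by the labels (vehicle by the legend of the study) or exposed to 0.03 µM auranofin for 12 h. The second was bone marrow-derived macrophage (BMDM) from C57BL/6 mice of 8 weeks, grown for 7 days in 30 ng/mL M-CSF, primed with 100 ng/mL LPS for 4 h and given 1 mM ATP. These BMDM received no auranofin or auranofin for 1 h, at 0.1 µM by the labels and 0.3 µM by the legend. Both BMDM groups therefore carried LPS, ATP and M-CSF. M-CSF is the ligand of CSF1R. Each group had 2 libraries, and the labels do not say whether these came from separate cultures, so p-values measure only the spread between these libraries.

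Levels are deposited FPKM values, fragments scaled to transcript length and library size, so levels of different genes can be compared within a table. The estimated depth was 30000000 to 39500000 fragments in HSC libraries and 27600000 to 35200000 in BMDM libraries. BMDM auranofin replicate 1 stood apart: among 4245 genes averaging 10 FPKM or more, 368 to 383 differed at least 2-fold between it and each other library, against 12 to 15 for any other pair. Member differences in BMDM are therefore given with and without this library. The HSC libraries held macrophage transcripts next to stellate ones. The 7 macrophage markers summed to 6236 to 6439 FPKM, with Lyz2 at 5379 to 5554, and the 10 stellate markers to 3014 to 3632 FPKM, with Col1a1 at 927 to 1075. The 4 Kupffer cell markers summed to 1784 to 1983 FPKM, with Cd5l at 1474 to 1657 and Vsig4 at 249 to 261. Endothelial markers summed to 167 to 182 FPKM, and hepatocyte and lymphocyte markers were near 0. The BMDM libraries carried macrophage markers at 6739 to 7593 FPKM, Kupffer cell markers at 109 to 128 FPKM and stellate markers at 5.4 to 10.3 FPKM.

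The stretches around the annotated starts of Cish and Sh2b3 are shown because Cish is the member with the STAT-type motif and Sh2b3 is the gene that defines the group. They were taken from the RefSeq promoter table of GRCm38.p6, the assembly that mm10 names, which held 8 of the 10 members. Each has 250 bases before the start and 20 after it, written 5′ to 3′ on the strand of the gene. The Cish stretch lies at chr9:107296409-107296678 on the plus strand, and capitals mark matches to TTCNNNGAA. The Sh2b3 stretch lies at chr5:121836085-121836354 on the minus strand, and capitals mark the bases from the start on.
Cish: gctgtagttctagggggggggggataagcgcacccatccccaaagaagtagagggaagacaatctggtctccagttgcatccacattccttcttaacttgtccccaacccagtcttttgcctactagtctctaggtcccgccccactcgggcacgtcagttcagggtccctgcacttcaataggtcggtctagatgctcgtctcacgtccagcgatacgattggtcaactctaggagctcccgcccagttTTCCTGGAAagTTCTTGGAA
Sh2b3: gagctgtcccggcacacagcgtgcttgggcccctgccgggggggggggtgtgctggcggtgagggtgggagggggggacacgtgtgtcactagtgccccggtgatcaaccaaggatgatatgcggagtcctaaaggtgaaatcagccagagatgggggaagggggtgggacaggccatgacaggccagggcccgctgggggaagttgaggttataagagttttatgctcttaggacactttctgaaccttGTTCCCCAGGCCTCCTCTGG
TTCNNNGAA, the letters STAT dimers prefer, was searched on both strands of the whole 300-base entries and matched in Cish alone of the 8 members, at 2 places, TTCCTGGAA and TTCTTGGAA. Of 32817 promoters, 8.29% held a match. TGACNNNGC, the core letters of the antioxidant response element, matched in none of the 8 members and in 12.4% of promoters. The Sh2b3 stretch lies inside the span of the gene, chr5:121815481-121837645, so starts further upstream were not covered.

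Sh2b3 was higher in all 4 auranofin libraries. In HSCs it stood at 8.81 and 10.4 FPKM in the control libraries and at 22.7 and 23.0 FPKM with auranofin, a mean of 22.9 ± 0.161 against 9.63 ± 1.16 (SD, n = 2). In BMDM it stood at 3.06 and 3.34 FPKM in the control libraries and at 9.77 and 7.18 FPKM with auranofin, a mean of 8.47 ± 1.83 against 3.20 ± 0.199 (SD, n = 2). The groups did not overlap in either cell type, which was also true of 50.1% of all genes tested in HSCs and 38.8% in BMDM. The means were 2.37 and 2.65 times the control means, or 1.17 and 1.16 on the log2(FPKM + 1) scale, which understates the change of low genes.

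Sh2b3 was also higher in the BMDM auranofin library in which few genes differed from the controls. Auranofin replicate 2 of BMDM stood 2.25 times the control mean for Sh2b3, a log2 difference of 0.96, while 0.379% of 9232 genes were at least 1.5-fold above the control mean in that library. Auranofin replicate 1 stood at 3.05 times, in a library where 15.2% of genes were at least 1.5-fold above. Since Sh2b3 was picked for its rise in these libraries, the shares describe the libraries and do not test Sh2b3. About 272 and 274 fragments lay behind the BMDM control values and 1022 and 739 behind the auranofin values. At the estimated depths and the mean transcript length, the 95% counting interval had a half-width of up to about 12.1% of a value. The 4 RefSeq transcripts of Sh2b3 run from 2393 to 4195 bases, a ratio of 1.75. Since FPKM divides by length, a switch between transcripts could move the value, and transcripts were not measured separately here. The neutrophil markers S100a8 and S100a9 were higher in the same BMDM libraries. S100a8 was at 54.9 and 58.5 FPKM in controls and at 85.5 and 81.0 FPKM with auranofin, and S100a9 at 103 and 108 FPKM and at 133 and 140 FPKM. The 4 neutrophil markers summed to 158 and 167 FPKM in controls and to 220 and 222 FPKM with auranofin, with Ly6g and Mpo under 1 FPKM. Mpo was at 0.804 and 0.988 FPKM in controls and at 0.949 and 0.838 FPKM with auranofin. Ly6g was at 0.0727 and 0 FPKM in controls and at 0.248 and 0.492 FPKM with auranofin. Both markers tested, S100a8 and S100a9, had an unadjusted p under 0.05 by limma, where 0.531% of all genes did. Neither passed after adjustment (limma adjusted p = 0.721 for each). The part of neutrophils in the Sh2b3 level was not tested.

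**Figure D1:**
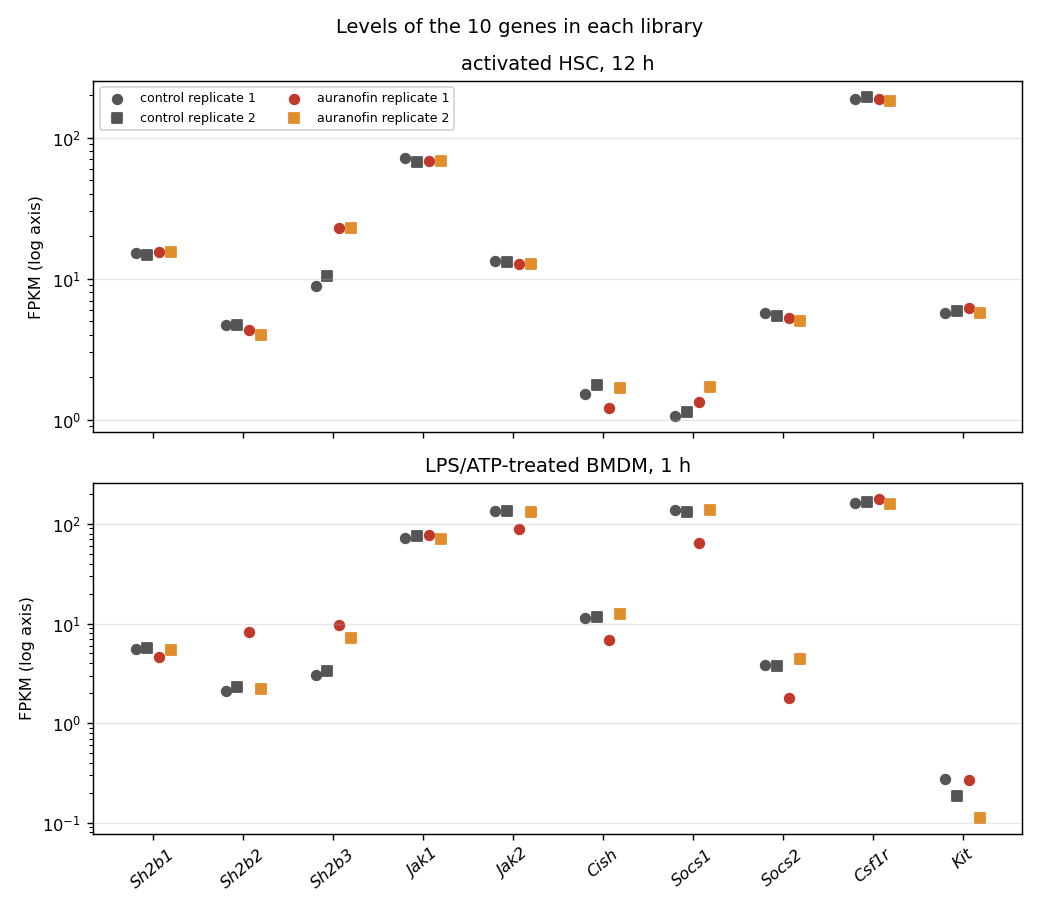
FPKM on a log axis of the 10 genes in each library of HSCs (top) and BMDM (bottom), with gray points for controls, red and orange points for auranofin replicates 1 and 2. Sh2b3 lies at 22.7 and 23.0 against 8.81 and 10.4 FPKM in HSCs and at 9.77 and 7.18 against 3.06 and 3.34 FPKM in BMDM.

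The members differed widely in level, and Sh2b3 stood higher in the order with auranofin. In control HSCs the order by mean FPKM was Csf1r, Jak1, Sh2b1, Jak2, Sh2b3, Kit, Socs2, Sh2b2, Cish and Socs1, and the ranges of neighbours were apart. Sh2b3 had rank 5 there and rank 3 with auranofin, above Sh2b1. With auranofin the ranges of Socs1 and Cish overlapped. In control BMDM the order was Csf1r, Jak2, Socs1, Jak1, Cish, Sh2b1, Socs2, Sh2b3, Sh2b2 and Kit, and the ranges of Jak2 and Socs1 overlapped. Sh2b3 had rank 8 there and rank 6 with auranofin, where its range overlapped with those of Cish and Sh2b2.

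Socs1, Cish and Jak2 stood higher in the LPS/ATP-treated BMDM than in HSCs. All BMDM libraries and no HSC library had LPS and ATP, so cell type and treatment cannot be told apart. Control means of the 2 tables, which were normalized separately and so were not tested, were 1.10 FPKM in HSCs and 135 FPKM in BMDM for Socs1, 123 times as high. Jak2 was at 13.3 and 135 FPKM, and Cish at 1.63 and 11.5 FPKM. Kit went the other way, at 5.79 FPKM in HSCs and 0.231 FPKM in BMDM. Sh2b1, Sh2b2 and Sh2b3 were 2.69, 2.14 and 3.01 times as high in HSCs, while Jak1 was at 69.7 and 74.0 FPKM and Csf1r at 191 and 165 FPKM.

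In HSCs none of the other 9 members passed the test. By limma with Benjamini-Hochberg adjustment over 12149 genes, 0 of 9 had an adjusted p under 0.05, where 2.33% of all genes tested did, and 1 of 9, Socs1, had an unadjusted p under 0.05, where 17.8% of all genes did. By the thresholds drawn in the study's figures, at least 1.5-fold with an unadjusted p under 0.05, 0 of 9 passed and 0.576% of all genes did. The median difference of the 9 was -0.05 on the log2 scale, beside 0.005 for all genes tested.

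Neither Sh2b1 nor Sh2b2 passed in HSCs. Sh2b1 was at 15.3 and 14.7 FPKM in controls and at 15.4 and 15.5 FPKM with auranofin. The auranofin libraries lay just above the controls, by 0.04 ± 0.04 (SE) on the log2 scale, with a 95% interval of -0.06 to 0.15 (limma adjusted p = 0.667). Sh2b2 was at 4.66 and 4.72 FPKM in controls and at 4.34 and 4.02 FPKM with auranofin. Both auranofin libraries lay below the controls, by -0.14 ± 0.06, with an interval of -0.29 to 0.01 (limma adjusted p = 0.309). For Sh2b1 and Sh2b2 the groups did not overlap, as for 50.1% of all genes tested.

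For the kinases the intervals of the difference were narrow in HSCs. Jak2, the kinase that SH2B3 binds, was at 13.3 and 13.2 FPKM in controls and at 12.7 and 12.7 FPKM with auranofin. Its log2 difference was -0.05 ± 0.04, with an interval of -0.15 to 0.05 (limma adjusted p = 0.549). Both auranofin libraries were below the controls, and groups were apart for 50.1% of all genes tested. Jak1 was at 71.8 and 67.6 FPKM in controls and at 68.6 and 68.3 FPKM with auranofin, and the groups overlapped. Its log2 difference was -0.03 with an interval of -0.13 to 0.08 (limma adjusted p = 0.792), and it came to 0.02 without control replicate 1.

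The feedback inhibitors were low in HSCs. Socs1, which inhibits JAK kinases directly, was at 1.06 and 1.13 FPKM in controls and at 1.33 and 1.69 FPKM with auranofin. The groups did not overlap, as for 50.1% of all genes tested. The log2 difference of 0.26 ± 0.10 had an interval of 0.01 to 0.50 (limma adjusted p = 0.263). Cish was at 1.51 and 1.75 FPKM in controls and at 1.21 and 1.67 FPKM with auranofin. The groups overlapped (adjusted p = 0.657 by limma), and the log2 difference of -0.12 came to 0.02 without auranofin replicate 1. Socs2, which restrains growth hormone signaling, was at 5.68 and 5.42 FPKM in controls and at 5.23 and 4.97 FPKM with auranofin. Both auranofin libraries were below the controls, by -0.10 ± 0.06 (limma adjusted p = 0.409), and groups were apart for 50.1% of all genes tested.

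Csf1r, the receptor for M-CSF and a gene of macrophages, was the highest member in the HSC libraries. It was at 188 and 194 FPKM in controls and at 186 and 181 FPKM with auranofin, a log2 difference of -0.05 with an interval of -0.14 to 0.03 (limma adjusted p = 0.485). The Csf1r groups did not overlap, as for 50.1% of all genes tested. Of the 7 macrophage markers beside it, 2 were higher and 5 lower, with 0 past the adjusted threshold by limma and 1 of 7 at an unadjusted p under 0.05, where 17.8% of all genes were. Of 3 Kupffer cell markers tested, 2 were higher and 1 lower. Clec4f rose, from 58.6 and 59.2 to 73.5 and 69.1 FPKM (limma adjusted p = 0.0395). The adjusted threshold was passed by 2.33% of all genes tested in HSCs. Timd4, a Kupffer cell marker too low to be tested, was at 0.568 and 0.610 FPKM in controls and 0.262 and 0.290 with auranofin. Of 9 stellate markers tested, 7 were lower and Acta2, smooth muscle actin, fell, from 956 and 965 to 743 and 737 FPKM (limma adjusted p = 0.00719). In bulk RNA, fewer cells of a type and less RNA per cell cannot be told apart.

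Kit, the receptor for stem cell factor, was at 5.71 and 5.88 FPKM in control HSC libraries and at 6.17 and 5.67 FPKM with auranofin. The groups overlapped, with a log2 difference of 0.03 and an interval of -0.12 to 0.17 (limma adjusted p = 0.866). It came to -0.03 without auranofin replicate 1. Of the 4 mast cell markers listed, Cpa3, Mcpt4 and Ms4a2 were at or near 0 in these libraries and Hdc was at 0.785 to 1.04 FPKM. The endothelial marker Cdh5 was at 68.0 to 79.7 FPKM. Of 6 endothelial markers, 4 were higher, 2 lower, and Stab2 fell from 20.7 and 21.5 to 15.9 and 16.3 FPKM (limma adjusted p = 0.0169). Of the progenitor markers, Cd34 was at 14.7 to 17.7 FPKM, and none of the 3 tested passed. The part of these cells in the Kit and Sh2b3 levels was not tested. The neutrophil genes S100a8 and S100a9 were high in auranofin replicate 2, where S100a9 reached 44.7 FPKM against 2.23 to 10.8 elsewhere. The part of neutrophils in the Sh2b3 level of these libraries was not tested.

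In BMDM none of the other members passed the test when both auranofin libraries were used. Of 8 tested, 0 had an adjusted p under 0.05 by limma, where 0.0108% of 9232 genes did, and 0 had an unadjusted p under 0.05, where 0.531% of all genes did. At least 1.5-fold with an unadjusted p under 0.05 was reached by 0 of 8 and by 0.152% of all genes. Kit, under the mean of 1 FPKM, was not tested. Single libraries differed. In auranofin replicate 1, 1 of 8 was at least 1.5-fold above the control mean and 4 were at least 1.5-fold below it, where 15.2% and 8.07% of all genes were. In auranofin replicate 2, 0 were above and 0 below, where 0.379% and 0.282% of all genes were. The median difference of the 8 was -0.42 in replicate 1 and -0.02 in replicate 2.

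**Figure D2:**
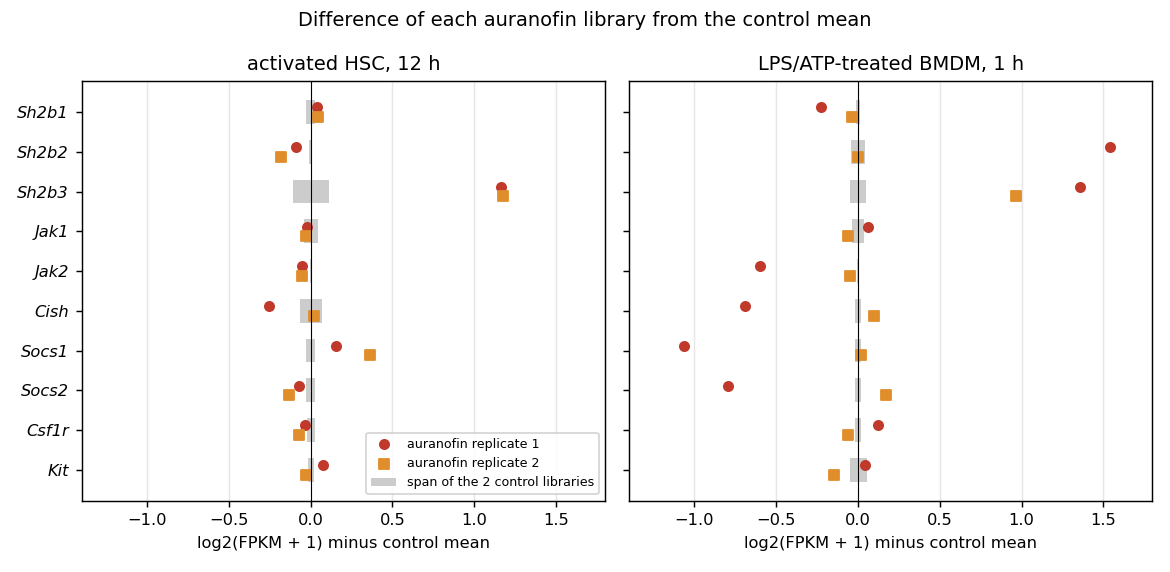
Difference of each auranofin library from the control mean on the log2(FPKM + 1) scale for the 10 genes in HSCs (left) and BMDM (right), where gray bars span the 2 control libraries. Sh2b3 is displaced in all 4 libraries by 0.96 to 1.36, while Sh2b2, Jak2, Cish, Socs1 and Socs2 pass 1.5-fold in BMDM replicate 1 but not in replicate 2.

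Sh2b2 was at 2.104 and 2.29 FPKM in control BMDM and at 8.30 and 2.20 FPKM with auranofin. The high value belongs to replicate 1, and replicate 2 lay between the controls. The log2 difference was 0.77 ± 0.56 (SE) with an interval of -0.78 to 2.32 (limma adjusted p = 0.721), and it was 0.00 without replicate 1. Sh2b1 was at 5.51 and 5.62 FPKM in controls and at 4.60 and 5.39 FPKM with auranofin. Both auranofin libraries were below the controls, by -0.13 ± 0.13 (limma adjusted p = 0.721), and by -0.04 without replicate 1. Groups were apart for 38.8% of all genes tested.

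Jak2 was at 134 and 136 FPKM in control BMDM and at 88.8 and 131 FPKM with auranofin. Both auranofin libraries were below the controls, replicate 2 only slightly, and groups were apart for 38.8% of all genes tested. The log2 difference was -0.33 ± 0.22 (limma adjusted p = 0.721), and it was -0.05 without replicate 1 (limma adjusted p = 0.709). Jak1 was at 72.2 and 75.8 FPKM in controls and at 77.1 and 71.0 FPKM with auranofin, with an auranofin library on either side of the controls. Its log2 difference was 0.00 with an interval of -0.31 to 0.31 (limma adjusted p = 0.998), and it was -0.06 without replicate 1.

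The 3 feedback inhibitors had the same shape in BMDM, low in auranofin replicate 1 and at or above the controls in replicate 2. Socs1 was at 137 and 133 FPKM in controls and at 64.2 and 137 FPKM with auranofin. Its log2 difference was -0.52 ± 0.40, and 0.02 without replicate 1. Cish, the member with the TTCNNNGAA matches, was at 11.3 and 11.7 FPKM in controls and at 6.75 and 12.4 FPKM with auranofin. The groups overlapped, with a log2 difference of -0.30 ± 0.30, and 0.10 without replicate 1. Socs2 was at 3.87 and 3.75 FPKM in controls and at 1.77 and 4.42 FPKM with auranofin. Its log2 difference was -0.31 ± 0.36, and 0.17 without replicate 1. By limma the adjusted p of these 3 genes lay at 0.721 to 0.729 with both auranofin libraries.

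Csf1r was the highest member in BMDM too, at 163 and 168 FPKM in controls and at 180 and 158 FPKM with auranofin. The auranofin libraries lay on either side of the controls, with a log2 difference of 0.03 (limma adjusted p = 0.913), and -0.06 without replicate 1. Of the 7 macrophage markers, 1 was at least 1.5-fold higher and 2 were lower in replicate 1, and 0 passed by limma at an adjusted or unadjusted p under 0.05. Lyz2 was at 3625 to 4279 FPKM and Cd68 at 1755 to 1920 FPKM over the 4 libraries. Kit was at 0.276 and 0.187 FPKM in controls and at 0.269 and 0.112 FPKM with auranofin. The groups overlapped. An estimated 20 to 49 fragments lay behind each value, and Kit was left out of the test by the filter on low values.

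The wider pathway was covered by 99 further genes in 7 lists: other JAKs and STATs, other inhibitors, receptors that use JAK2, other receptor tyrosine kinases, ligands, adaptors and effectors, and STAT targets. In HSCs 77 were tested, 31 higher and 46 lower, and 1 passed the adjusted threshold, against 2.33% of all genes. By limma 20 of 77 had an unadjusted p under 0.05, where 17.8% of all genes did, and 0 passed the 1.5-fold thresholds, where 0.576% did. Their median difference was -0.04, beside 0.005 for all genes tested. The counts of higher and lower genes were 2 and 6 for JAKs and STATs, 9 and 5 for inhibitors, 5 and 10 for receptors that use JAK2, 2 and 4 for receptor tyrosine kinases, 2 and 4 for ligands, 7 and 11 for adaptors and effectors, and 4 and 6 for STAT targets. The gene that fell was Csf1, the M-CSF ligand of CSF1R. It was at 219 and 208 FPKM in controls and at 178 and 171 FPKM with auranofin. The groups were apart, as for 50.1% of all genes tested, with a log2 difference of -0.29 ± 0.04 (limma adjusted p = 0.0316). Without auranofin replicate 1 or 2 the adjusted p by limma was 0.0599 and 0.0885, and it was 0.114 without the filter on low values and 0.0921 without a variance trend.

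Next to Csf1, the most abundant genes of each HSC list gave small differences. Il6st, the shared signaling receptor of the IL-6 family, was at 107 and 106 FPKM in controls and at 89.1 and 93.6 FPKM with auranofin (log2 difference -0.21, limma adjusted p = 0.0551). Ptpn1, a phosphatase that acts on JAK2, was at 42.5 and 42.4 FPKM and at 48.9 and 47.8 FPKM (limma adjusted p = 0.064). Both had groups that were apart, as for 50.1% of all genes tested, and neither passed. Stat3 and Stat6 were at 49.3 to 51.6 and 48.1 to 50.2 FPKM, Grb2 at 60.4 to 64.3 FPKM, Shc1 at 52.0 to 57.1 FPKM and Mcl1 at 73.1 to 79.1 FPKM. Csf2ra was at 93.4 to 116 FPKM, Kitl, the ligand of KIT, at 13.9 to 15.6 FPKM and Pdgfrb at 47.7 to 51.5 FPKM. Ccnd2 was at 67.6 to 70.7 FPKM, Ptpn6 at 75.4 to 81.4 FPKM and Fgfr1 at 26.3 to 29.8 FPKM. Groups were also apart for Stat6, Grb2, Shc1, Kitl and Fgfr1, higher with auranofin, and for Stat3 and Ptpn6, lower with auranofin. For Mcl1, Csf2ra, Pdgfrb and Ccnd2 the groups overlapped. None of these genes passed the adjusted threshold by limma.

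**Figure D3:**
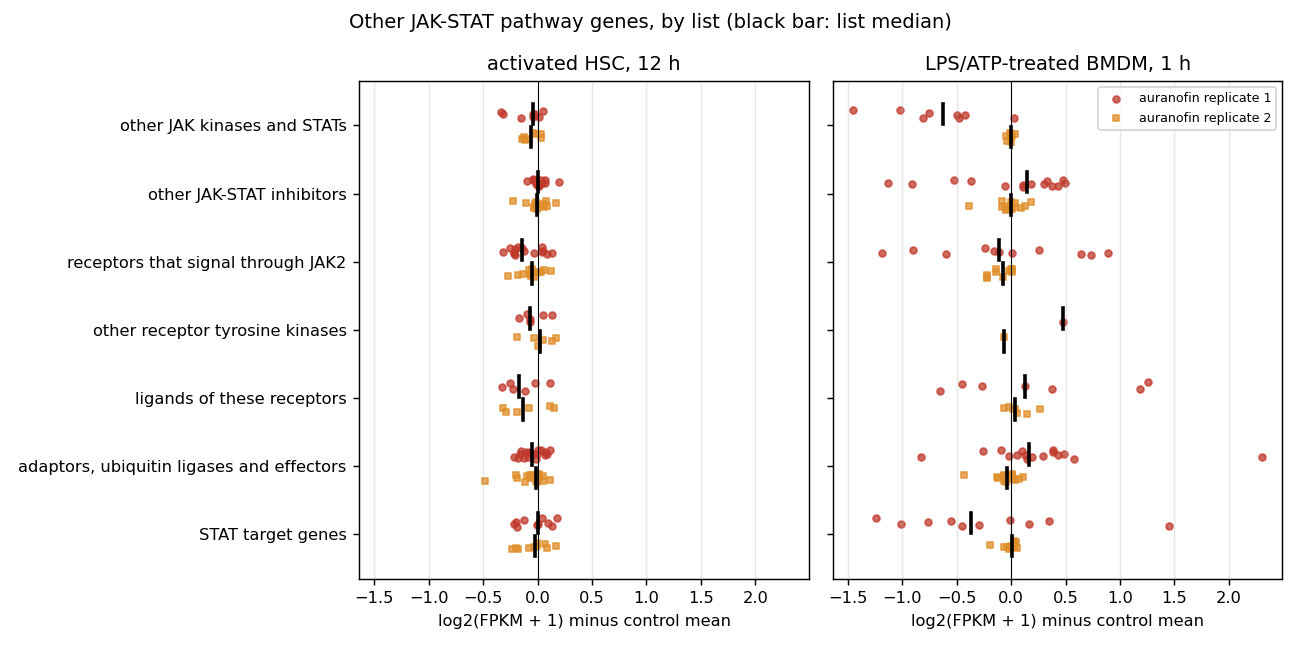
Difference of each auranofin library from the control mean on the log2(FPKM + 1) scale for the tested genes of 7 pathway lists in HSCs (left) and BMDM (right), with black bars at list medians. In BMDM the red points of replicate 1 spread widely and the orange points of replicate 2 stay close to 0.

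In BMDM 67 of the 99 genes were tested, 35 higher and 32 lower. Centred on the median, the split was 22 and 45, and in replicate 2 by itself 31 and 36. All genes tested split into 6102 higher and 3130 lower. By limma 0 pathway genes passed the adjusted threshold and 0 had an unadjusted p under 0.05, where 0.0108% and 0.531% of all genes did. The median difference of the pathway genes was 0.005, beside 0.089 for all genes tested. In replicate 1, 7 of 67 were at least 1.5-fold higher and 14 lower, where 15.2% and 8.07% of all genes were. In replicate 2 the counts were 0 and 0, where 0.379% and 0.282% of all genes were. The counts of higher and lower genes were 9 and 5 for inhibitors, 5 and 6 for receptors that use JAK2, 4 and 3 for ligands, 11 and 5 for adaptors and effectors, and 4 and 6 for STAT targets. In replicate 2 by itself these counts were 6 and 8, 4 and 7, 5 and 2, 7 and 9, and 5 and 5. The tested receptor tyrosine kinase, Insr, was at 1.85 FPKM in replicate 1 and at 0.958 to 1.14 FPKM in the other libraries. Of the 8 other JAKs and STATs tested, 7 were lower, and 4 were lower in replicate 2 by itself, with a median of -0.62 in replicate 1 and -0.002 in replicate 2. Stat3, the STAT of the IL-6 family, was at 140 and 145 FPKM in controls and at 69.7 and 143 FPKM with auranofin. Stat2, which acts in interferon signaling, was at 169 and 172 FPKM and at 122 and 165 FPKM.

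The inhibitor Socs3 had the same shape as Socs1, at 460 and 464 FPKM in control BMDM and at 245 and 492 FPKM with auranofin. The STAT targets Irf1 and Pim1 were at 696 and 671 FPKM and at 468 and 462 FPKM in controls. With auranofin they were at 466 and 664 FPKM and at 341 and 464 FPKM. Of the ligands, Csf1 was at 76.6 and 77.1 FPKM in controls and at 63.5 and 76.0 FPKM with auranofin. Il6 was at 414 and 417 FPKM and at 264 and 430 FPKM. Csf2ra was at 126 to 132 FPKM, Ifngr2 at 42.4 to 65.5 FPKM, Grb2 at 50.3 to 56.3 FPKM, Vav1 at 22.9 to 27.8 FPKM, Ptprc at 78.6 to 140 FPKM and Igf1r at 0.645 to 1.27 FPKM. Irs2, an insulin receptor substrate named after its values were seen, was at 3.12 and 2.99 FPKM in controls and at 19.0 and 2.87 FPKM with auranofin, the same shape as Sh2b2.

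Genes with a pattern like that of Sh2b3 were ranked among 8963 genes tested in both tables, by Euclidean distance over the 8 libraries of log2(FPKM + 1) less the control mean. The 5 nearest were 2210408F21Rik at 0.974, A530064D06Rik at 1.08, Susd3 at 1.10, Blvrb, biliverdin reductase B, at 1.12 and Gbe1, the glycogen branching enzyme, at 1.13, beside a median of 2.26. Their Pearson correlations with Sh2b3 over the 8 libraries, which share their control libraries and depth within each table, were 0.902, 0.83, 0.849, 0.826 and 0.849. The 5 were picked by distance over these same values, so high correlations follow from the choice and are not a test. Since Sh2b3 was picked for its rise, genes without a change lie far from it, so the median is no test either. Without BMDM auranofin replicate 1, a comparison chosen after seeing the data, 2210408F21Rik and Gbe1 had ranks 1 and 3, and A530064D06Rik, Susd3 and Blvrb had ranks 8, 13 and 17. The correlations of the 5 genes then lay at 0.767 to 0.968 over 7 libraries, and the other genes among the nearest 5 were Prdx1, Procr and Gstm1. In BMDM auranofin replicate 2, where Sh2b3 stood 0.96 above the control mean, these 5 stood -0.05 to 0.35 from it. At least 1.5-fold higher in all 4 auranofin libraries were 3 of the 8963 genes, namely Eno1b, Gm12657 and Sh2b3. Sh2b3 was picked for its rise in these libraries, so its place among the 3 is a description and not a test.

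**Figure D4:**
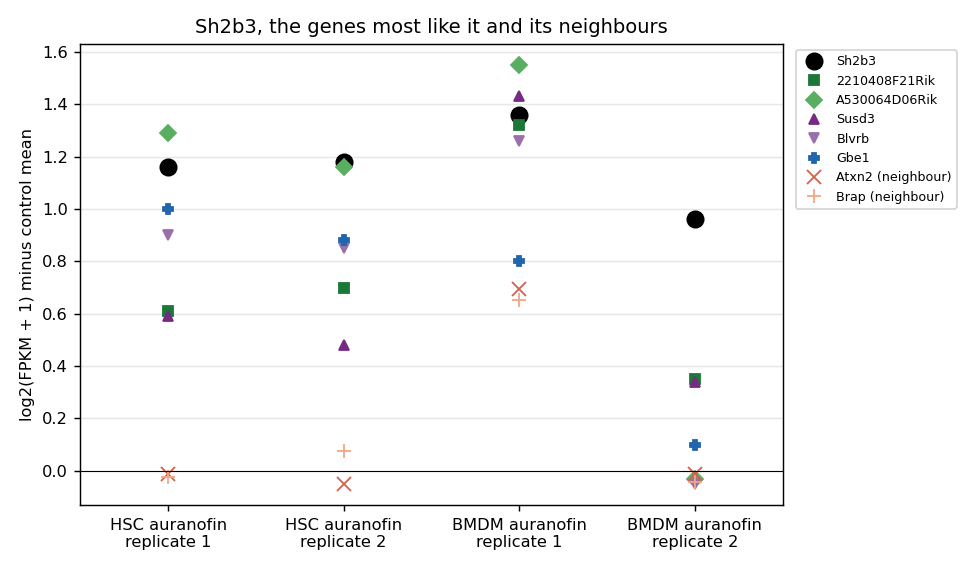
Difference from the control mean on the log2(FPKM + 1) scale in each of the 4 auranofin libraries for Sh2b3 (black), the 5 genes most like it and its neighbours Atxn2 and Brap. In BMDM replicate 2 Sh2b3 stands at 0.96 and the other genes at 0.35 or less.

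The genes next to Sh2b3 on chromosome 5 were compared with it as a description. Atxn2, 531 bases away, was at 20.3 and 19.96 FPKM in control HSCs and at 19.96 and 19.4 FPKM with auranofin (log2 difference -0.03, limma adjusted p = 0.731). In BMDM it was at 6.34 and 7.37 FPKM in controls and at 11.7 and 6.78 FPKM with auranofin, high in replicate 1 alone. Brap was at 18.0 to 19.3 FPKM in HSCs and, in BMDM, at 11.5 FPKM in auranofin replicate 1 against 6.70 to 6.98 FPKM in the other libraries. Cux2 and Myl2 were near 0.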

How the data were processed

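RNA-seq of HSCs and BMDM was analysed with 2 libraries per group. The authors deposited FPKM values per gene in 2 tables on mm10 with RefSeq transcripts, after a stranded mRNA kit. Per the labels' processing notes, CASAVA, FastQC 0.11.7, Trimmomatic 0.38, HISAT2 2.1.0 and StringTie 1.3.4d were used. FPKM holds no counts, so count tests were not run. Depth was estimated from values under 0.2 FPKM in genes with 1 transcript, using GENCODE transcript lengths. Of the low values, 50.3% to 58.8% fell within 0.1 fragment of a whole number, so depths and counting intervals are approximate and cover counting error only.

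Each table was fitted alone as log2(FPKM + 1) with limma 3.58.1 (eBayes with trend) in R 4.3.3, keeping genes whose mean over the table reached 1 FPKM, and tested on simulated data. Groups came from the labels. Genes named were the 10 members, pathway genes past either threshold, the 2 most abundant genes of each pathway list, the 5 genes most like Sh2b3 and its neighbours. Some genes fell outside this rule and were named after their values were seen. These were single markers (Lyz2, Cd68, Col1a1, Cd5l, Vsig4, Clec4f, Timd4, Acta2, Stab2, Cdh5, Cd34, the mast cell and the neutrophil markers). Irs2, Tyk2, Stat5a, Stat5b, Kitl and Osm in BMDM were also named in this way, as were Eno1b, Gm12657, Prdx1, Procr and Gstm1. Members and lists were chosen with earlier results of these data known. Alternatives changed the pseudocount, filter, scaling, trend, replicate block, fold threshold and each library. Figures used Python 3.11.15 and matplotlib 3.10.9.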

Additional observations from a re-analysis of the deposited data

Results flagged for a closer look

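Sh2b1 differed in direction between the cell types. In HSCs both auranofin libraries were above both control libraries, with a log2 difference of 0.041, and in BMDM both were below, with a log2 difference of -0.13. Neither passed the threshold, the difference between cell types was not tested, and dose and time differed between them.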

How the results depend on the processing

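The Sh2b3 difference kept its direction under every alternative run, at 1.06 to 1.28 in HSCs and 0.96 to 1.36 in BMDM. Sh2b3 was picked for this rise and its groups did not overlap, so leaving out a library could not reverse the direction. These ranges are a description and not a test. In HSCs 283 genes passed the adjusted threshold, 49 without a filter, 129 without trend and 179 to 517 with a library left out. The 1.5-fold thresholds gave 70 genes, 124 with a pseudocount of 0.1, 17 at 2-fold and 107 to 139 with a library left out. Of the pathway genes 1 passed, 0 without a filter or trend, 2 at a mean of 5 FPKM or centred on the median (Csf1 and Il6st), and 0 to 1 with a library left out. In BMDM 1 gene passed the adjusted threshold, 0 without a filter or with quantile normalization, 2 without trend and 1 to 6051 with a library left out. The 1.5-fold thresholds gave 14 genes (8 higher, 6 lower), 18 (8 higher, 10 lower) under quantile normalization or centring, 27 with a pseudocount of 0.1, 8 at a mean of 5 FPKM, 7 at 2-fold and 14 to 2146 with a library left out. Among members other than Sh2b3, 0 to 7 passed with a library left out, and among pathway genes 0 to 50. The 6051, 2146, 7 and 50 came without BMDM auranofin replicate 2, where replicate 1 stands for its group and is assumed to vary like the controls; without replicate 1 the counts were 15, 31, 0 and 0. Direction changed, in HSCs, for Jak1 (-0.069 to 0.017), Cish (-0.25 to 0.022) and Kit (-0.027 to 0.077) with a library left out. In BMDM it changed for Jak1 (-0.059 to 0.060), Cish (-0.69 to 0.097), Socs1 (-1.06 to 0.021), Socs2 (-0.80 to 0.17) and Csf1r (-0.064 to 0.12) with a library left out, and for Jak1 (-0.092) and Csf1r (-0.063) centred on the median. The cause of these changes was not tested. Samples share only a replicate number (correlation of deviations 0.109 in HSCs and -0.0551 in BMDM). The replicate block gave 282 and 75 genes in HSCs and 1 and 42 in BMDM, and changed no call of a member. Without a filter on low values the tests covered more genes. The ranking by likeness to Sh2b3 without BMDM auranofin replicate 1 was added after seeing the data and kept 2 of the 5 nearest genes.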

Other observations

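Some pathway genes, named after their values were seen, stood apart in BMDM auranofin replicate 1. Tyk2, a JAK kinase, was at 67.7 and 67.5 FPKM in controls and at 24.1 and 65.9 FPKM with auranofin. Stat5a and Stat5b, which act downstream of JAK2, were at 70.0 and 16.8 FPKM in replicate 1, against 115 to 122 and 29.3 to 31.2 FPKM in the other libraries. The KIT ligand gene Kitl was at 9.40 FPKM in replicate 1 against 3.38 to 3.77 FPKM elsewhere, and Osm, a cytokine of the IL-6 family, at 29.3 against 11.2 to 12.2 FPKM. None of these 5 genes passed the test over both auranofin libraries (limma adjusted p = 0.721 for each).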
